A study of Mus musculus with 6 samples.

Results

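Members of the Hippo pathway and genes that report its output were followed in the transcriptomes of ovarian granulosa cells (GCs) from mice given cyclophosphamide (CTX) or phosphate buffered saline (PBS). They were taken by gene name from the deposited table and comprised 9 of its 54532 genes. Among them are the kinases *Lats1* and *Lats2*, the coactivators *Yap1* and *Wwtr1* (which encodes TAZ), the DNA-binding factor *Tead1* and the target genes *Ankrd1*, *Amotl2*, *Ccn1* and *Ccn2*. The last pair is listed there under the older names *Cyr61* and *Ctgf*.

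Both groups consisted of female ICR mice aged 3 weeks that had been primed with PMSG (5 IU), a serum gonadotropin that starts follicle growth. After a further 22 h they were injected with 120 mg/kg CTX, an alkylating chemotherapeutic, or with PBS alone, and GCs were taken 6 h later. RNA-seq covered 3 samples per group, each a pool of GCs from 3 mice, so differences between single animals were not visible. Levels are given as FPKM (sequenced fragments per kilobase of each gene, scaled to the depth of the library), and can therefore be compared between genes.

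In the Hippo pathway, the kinases MST1 and MST2 activate LATS1 and LATS2, which phosphorylate YAP and TAZ and keep them out of the nucleus. Unphosphorylated YAP and TAZ enter the nucleus, bind TEAD factors and switch on genes such as *Ccn1*, *Ccn2*, *Ankrd1* and *Amotl2*. In the ovary the pathway is known for its part in follicle growth. Because YAP and TAZ are regulated mainly at the protein level, mRNA values of their genes do not measure their activity.

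TEAD factors recognise the core CATTCC, or GGAATG on the opposite strand, and the promoters of the genes whose levels differed most between the groups are shown to place that core. Each window runs from 250 bases before to 50 bases after the transcript start in RefSeq (GRCm38.p6), and capitals mark every match to the core on either strand. The *Ccn1* window (chr3:145649936-145650235, minus strand), the *Amotl2* window (chr9:102717554-102717853, plus strand), the *Ankrd1* window (chr19:36119795-36120094, minus strand) and the first *Wwtr1* window (chr3:57575861-57576160, minus strand) read as follows.
Ccn1: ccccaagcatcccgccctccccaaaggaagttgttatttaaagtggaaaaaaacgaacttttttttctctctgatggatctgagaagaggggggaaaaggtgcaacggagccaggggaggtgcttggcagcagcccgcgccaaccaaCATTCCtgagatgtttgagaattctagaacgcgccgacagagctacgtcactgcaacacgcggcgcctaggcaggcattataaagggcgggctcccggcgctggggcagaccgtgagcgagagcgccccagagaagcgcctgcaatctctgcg
Amotl2: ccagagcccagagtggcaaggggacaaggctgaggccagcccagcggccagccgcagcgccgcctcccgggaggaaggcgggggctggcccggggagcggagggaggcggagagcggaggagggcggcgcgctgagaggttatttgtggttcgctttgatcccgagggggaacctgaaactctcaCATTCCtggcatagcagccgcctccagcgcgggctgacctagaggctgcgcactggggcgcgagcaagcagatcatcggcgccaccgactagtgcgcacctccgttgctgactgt
Ankrd1: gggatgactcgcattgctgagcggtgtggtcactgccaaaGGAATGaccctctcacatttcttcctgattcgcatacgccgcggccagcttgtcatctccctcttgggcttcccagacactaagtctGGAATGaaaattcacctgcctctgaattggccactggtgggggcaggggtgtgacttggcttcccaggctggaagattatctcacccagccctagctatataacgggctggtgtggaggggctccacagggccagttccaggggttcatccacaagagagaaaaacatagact
Wwtr1: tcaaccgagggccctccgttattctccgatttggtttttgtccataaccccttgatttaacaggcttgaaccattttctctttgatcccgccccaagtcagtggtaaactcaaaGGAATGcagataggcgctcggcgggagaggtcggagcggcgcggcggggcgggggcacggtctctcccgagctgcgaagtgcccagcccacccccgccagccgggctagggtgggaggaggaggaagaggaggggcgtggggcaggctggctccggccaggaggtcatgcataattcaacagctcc

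Counting the first transcribed base as 0, the match lay at -103 to -98 in *Ccn1*, at -65 to -60 in *Amotl2* and at -136 to -131 in *Wwtr1*. *Ankrd1* had a pair of matches, at -210 to -205 and at -123 to -118. Windows were given for 7 of the 9 genes, all but *Ccn2* and *Tead1*, and 6 of these 7 held a match. *Yap1* had one at -141 to -136, *Lats2* had one at 4 to 9, just past the start, and *Lats1* had none. The second windows given for *Wwtr1* and *Lats2* held, respectively, the same bases of the first match and no match. Of all 32851 promoter windows of this length, 4817 (14.7%) held the same core. The match was thus present in *Ccn1* and *Amotl2*, which rose, in *Ankrd1*, which was lower in all CTX samples, and in *Yap1*, whose groups overlapped. Neither the AP-1 motif TGANTCA (7.81% of all windows) nor a CArG box, the site of serum response factor (1.63% of all windows), was found in any of these windows, searched on both strands.

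**Figure D1:**
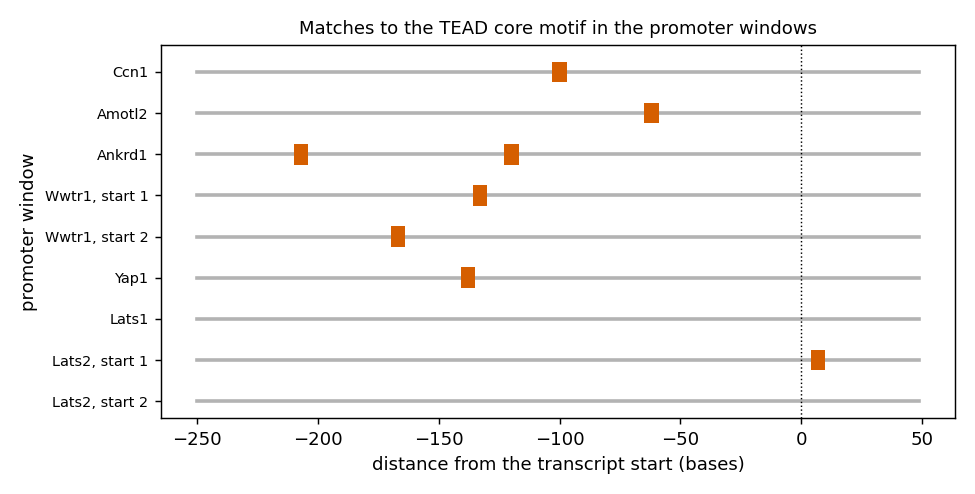
Each grey line is a promoter window, drawn by distance from the transcript start in bases, and each orange block is a match to the TEAD core motif on either strand. The windows of *Ccn1*, *Amotl2*, *Wwtr1* and *Yap1* hold 1 match upstream of the start, that of *Ankrd1* holds 2, and those of *Lats1* and the second start of *Lats2* hold none.

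The whole table was compared first to set a background for these genes. The reads rebuilt from the FPKM values came to between 16005869 and 17790353 per PBS sample and between 17727770 and 18455011 per CTX sample. With limma and Benjamini-Hochberg adjustment over all genes, 254 of the 14463 tested (1.76%) had an adjusted p-value below 0.05, and 19.6% had an unadjusted one below it. They comprised 202 (1.40%) that were higher and 52 (0.360%) that were lower after CTX treatment, and 139 (0.961%) also changed by more than 2-fold and are called DEGs here (116 higher, 0.802%, and 23 lower, 0.159%). CTX replicate 2 stood apart from the other 5 samples, at 74.7 on the first principal component against -26.6 to 13.2. The spread between CTX samples was also wider than that between PBS samples, with a median SD over all tested genes of 0.18 against 0.10 on the log2 scale.

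To determine which of the 9 genes responded to CTX, their log2(FPKM + 0.1) values were compared between the groups. *Ccn1* and *Amotl2* rose by more than 2-fold and passed the adjusted threshold, so both were DEGs. That was 2 of the 9 genes (22.2%), against 1.76% of all tested genes past the threshold and 0.961% called DEGs. At an unadjusted p-value below 0.05 it was 4 of 9, all higher, against 19.6% of all tested genes in either direction. None was called lower by limma or by voom on the rebuilt reads, adjusted or unadjusted (0 of 9 each time). Of all tested genes, 0.360% were called lower by limma at the adjusted threshold. *Ccn2* and *Wwtr1* were higher in every CTX sample than in any PBS sample, without passing the adjusted threshold. *Ankrd1* was lower in every CTX sample, also without passing. The groups overlapped for *Yap1*, *Tead1*, *Lats1* and *Lats2*. All 9 genes exceeded the minimum for testing, a mean of 0.5 FPKM. The groups were apart in 5 of the 9 genes, against 29.2% of all tested genes. All CTX samples exceeded all PBS samples in 4 of them (15.0% of all tested genes) and were under all PBS samples in 1 (14.1%). The median log2 fold change of the 9 genes was 0.20, against -0.01 over all tested genes.

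**Figure D2:**
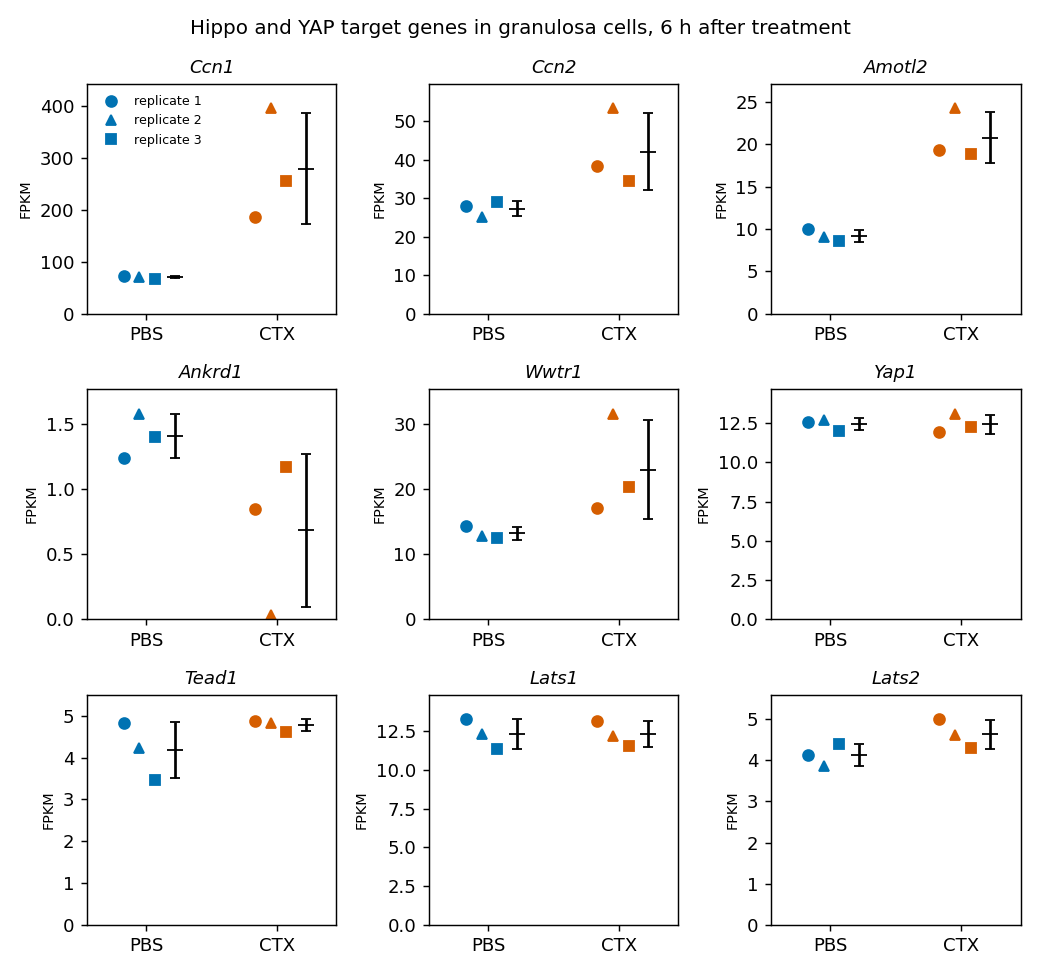
FPKM of each gene in each of the 3 PBS (blue) and 3 CTX (orange) samples, with symbols for the replicate number and a black bar for the mean and SD of the group; each axis starts at 0. *Ccn1*, *Ccn2*, *Amotl2* and *Wwtr1* lie higher in all CTX samples, *Ankrd1* lies lower, and CTX replicate 2 is the extreme CTX sample in all 5.

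Of the target genes, *Ccn1* encodes a secreted matricellular protein that binds integrins, and many stimuli raise it within a short time. It lies on the minus strand of chromosome 3 (145646976 to 145649981, GRCm38). Its FPKM was 72.3, 70.7 and 67.7 after PBS and 187, 395 and 255 after CTX. The 3 PBS samples were close together, whereas the CTX samples were all far above them and spread widely. Group means were 70.2 ± 2.36 and 279 ± 106 FPKM (mean ± SD, n = 3), with a log2 fold change of 1.92 ± 0.26 (SE; limma, adjusted p = 0.0220). By log2 fold change it ranked 83rd among the 14463 tested genes. With CTX replicate 2 left out it was 1.64 (limma, adjusted p = 0.00282). Leaving out PBS replicate 1, 2 or 3 or CTX replicate 3 ended the call, with adjusted p-values of 0.0983 to 0.124. The log2 fold change was then 1.89 to 1.95. In these fits 0.532%, 0.525%, 0.484% and 0.733% of all tested genes passed, against 1.76% with all samples.

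*Amotl2* encodes an angiomotin-like junction protein that binds YAP and TAZ and restrains them, and its gene is also their target. It lies on the plus strand of chromosome 9 (102716672 to 102733418). Its FPKM was 10.01, 9.02 and 8.60 after PBS and 19.3, 24.3 and 18.8 after CTX. The lowest CTX sample was well above the highest PBS sample, and both groups were narrow relative to the gap. Group means were 9.21 ± 0.725 and 20.8 ± 3.02 FPKM (mean ± SD, n = 3), with a log2 fold change of 1.16 ± 0.12 (SE; limma, adjusted p = 0.00819). It was 1.04 without CTX replicate 2 (limma, adjusted p = 0.00281). The call was lost without PBS replicate 2 (limma, adjusted p = 0.0632) and without PBS replicate 3 (limma, adjusted p = 0.0685). Of all tested genes, 0.525% and 0.484% passed in these fits.

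*Ccn2*, a paralog of *Ccn1* known as connective tissue growth factor, acts on matrix deposition and is a common readout of YAP activity. It lies on the plus strand of chromosome 10 (24595442 to 24598683). Its FPKM was 27.9, 25.1 and 28.9 after PBS and 38.4, 53.3 and 34.6 after CTX. The groups did not overlap, but the gap between them was small beside the distance of CTX replicate 2 from the other CTX samples. Group means were 27.3 ± 1.95 and 42.1 ± 9.91 FPKM (mean ± SD, n = 3), a log2 fold change of 0.60 with a 95% confidence interval of 0.20 to 1.00 (limma, adjusted p = 0.144), and 0.42 without CTX replicate 2 (limma, adjusted p = 0.0659). A noncoding transcript listed as *Gm15270* overlaps *Ccn2* on the opposite strand, and it had at most 55 reads in any sample. Whether reads were counted by strand is not given in the sources used here.

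*Ankrd1* encodes an ankyrin repeat protein of muscle that also acts in the nucleus, and it is a classical YAP target in many cell types. It lies on the minus strand of chromosome 19 (36111965 to 36119844). Its FPKM was 1.24, 1.58 and 1.40 after PBS and 0.844, 0.0319 and 1.17 after CTX. These levels rested on 39, 51 and 40 reads after PBS and on 27, 1 and 37 reads after CTX. All CTX samples were below the PBS samples, and CTX replicate 2 was nearly empty. For that sample the exact Poisson 95% interval of 0.0253 to 5.57 reads corresponds to at most 0.178 FPKM, which covers counting error only. The log2 fold change was -1.47 with a 95% confidence interval of -3.49 to 0.55 (limma, adjusted p = 0.367). It was -0.45 when CTX replicate 2 was left out (limma, adjusted p = 0.309). The difference of *Ankrd1* thus had the opposite sign to those of the other target genes, on few reads and without passing the test.

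Of the genes for the YAP and TAZ coactivators, *Wwtr1* was higher in all CTX samples and *Yap1* was not. *Wwtr1*, on the minus strand of chromosome 3 (57455649 to 57575910), had 14.3, 12.8 and 12.5 FPKM after PBS and 17.2, 31.6 and 20.3 FPKM after CTX. Every CTX sample was above the PBS samples, with replicate 2 far above the other CTX samples. Means were 13.2 ± 0.957 and 23.0 ± 7.59 FPKM (mean ± SD, n = 3), and the log2 fold change was 0.75 with a 95% confidence interval of 0.22 to 1.28 (limma, adjusted p = 0.159). It was 0.50 with CTX replicate 2 left out (limma, adjusted p = 0.0591).

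*Yap1*, on the minus strand of chromosome 9 (7931999 to 8004596), had 12.6, 12.7 and 12.0 FPKM after PBS and 11.9, 13.1 and 12.3 FPKM after CTX. The groups covered the same narrow range. Means were 12.4 ± 0.366 and 12.4 ± 0.604 FPKM (mean ± SD, n = 3). The log2 fold change was -0.0013, with a 95% confidence interval of -0.16 to 0.16 (limma, adjusted p = 0.995), so a change of the size seen in *Amotl2* lay outside the interval.

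The ratio of *Wwtr1* to *Yap1* was taken within each sample, where scaling between samples cancels. It was 1.14, 1.01 and 1.04 after PBS and 1.44, 2.41 and 1.65 after CTX. The 2 coactivator genes were thus at about equal FPKM after PBS, and *Wwtr1* was the higher of them in all CTX samples. It was 1.69-fold higher after CTX treatment (exact permutation test, two-sided, p = 0.10, or 0.15 adjusted over the 3 ratios examined). No smaller p than 0.10 is possible with 3 samples per group. The log2 difference of 0.75 became 0.54 without CTX replicate 2.

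**Figure D3:**
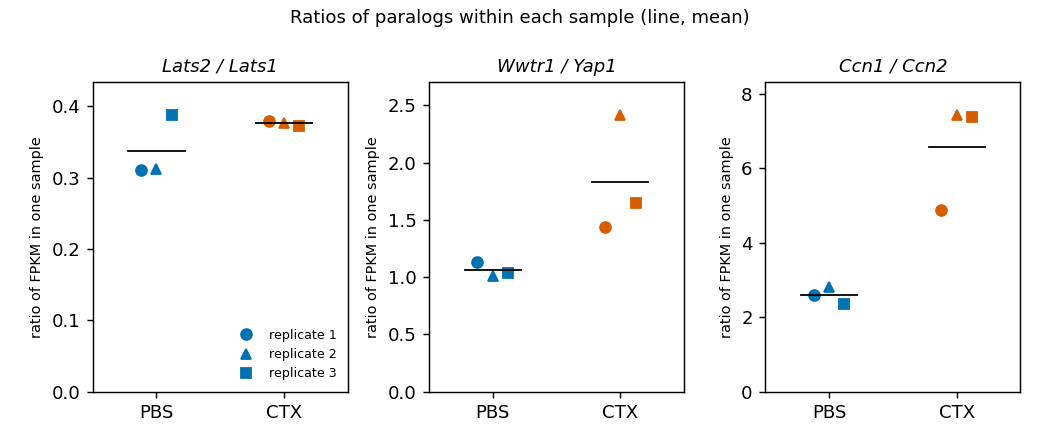
Ratio of FPKM between paralogs within each sample, for the 3 PBS (blue) and 3 CTX (orange) samples, with a line at the group mean and axes that start at 0. The *Wwtr1* to *Yap1* ratio is at most 1.14 after PBS and at least 1.44 after CTX, whereas the *Lats2* to *Lats1* ratios of the groups overlap.

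The *Ccn1* to *Ccn2* ratio, chosen after the values were seen, was 2.59, 2.81 and 2.34 after PBS and 4.87, 7.41 and 7.38 after CTX. It was 2.50-fold higher after CTX treatment (exact permutation test, two-sided, p = 0.10, or 0.15 adjusted over the 3 ratios). The log2 difference of 1.32 became 1.22 without CTX replicate 2. Every CTX ratio was thus above every PBS ratio, in replicate 2 and in the other CTX samples alike.

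*Lats1* and *Lats2* encode the kinases that phosphorylate YAP and TAZ, and *Lats2* is itself a target of YAP. *Lats1* (chromosome 10, plus strand, 7681214 to 7716460) had 13.3, 12.3 and 11.3 FPKM after PBS and 13.2, 12.2 and 11.6 FPKM after CTX. The 2 sets of values were nearly superimposed. The log2 fold change was 0.00087 (95% confidence interval -0.21 to 0.21, limma, adjusted p = 0.998). *Lats2* (chromosome 14, minus strand, 57689662 to 57758388) had 4.13, 3.86 and 4.39 FPKM after PBS and 5.002, 4.61 and 4.30 FPKM after CTX. One CTX sample lay within the PBS range and the others lay just above it. The log2 fold change was 0.16 (95% confidence interval -0.07 to 0.40, limma, adjusted p = 0.382). The *Lats2* to *Lats1* ratio was 0.311, 0.313 and 0.387 after PBS and 0.380, 0.377 and 0.372 after CTX (exact permutation test, two-sided, p = 0.40, also after adjustment). Without PBS replicate 3, the only PBS sample above the CTX samples, the log2 difference went from 0.16 to 0.27 (exact permutation test, p = 0.10, the smallest possible). With any other sample left out it was 0.11 to 0.17 (exact permutation test, p = 0.40 to 0.60). A pseudogene and a small RNA gene overlap *Lats2* on the opposite strand, with at most 15 reads in any sample, and the gene model *Gm49361* overlaps it on the same strand and is listed at 0.

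*Tead1* encodes one of the TEAD factors that carry YAP and TAZ to DNA. It lies on the plus strand of chromosome 7 (112679318 to 112906807). Its FPKM was 4.82, 4.24 and 3.48 after PBS and 4.88, 4.84 and 4.63 after CTX. The highest PBS sample lay within the CTX range. The log2 fold change was 0.20 (95% confidence interval -0.11 to 0.52, limma, adjusted p = 0.412).

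**Figure D4:**
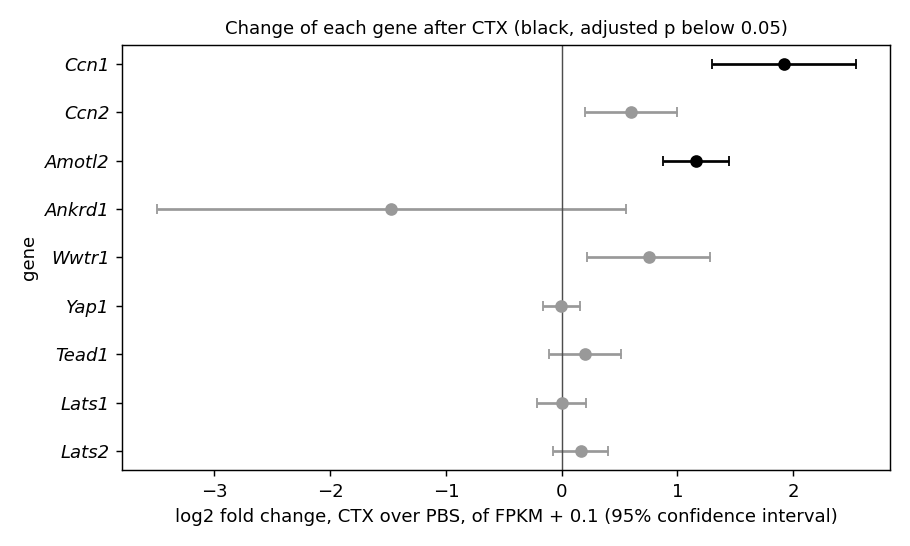
Log2 fold change of CTX over PBS for each gene on the FPKM + 0.1 scale, with its 95% confidence interval from limma; black marks an adjusted p-value below 0.05. *Ccn1* (1.92) and *Amotl2* (1.16) pass, the intervals of *Yap1*, *Lats1*, *Lats2*, *Tead1* and *Ankrd1* include 0, and that of *Ankrd1* is the widest.

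Ordered by FPKM, the levels after PBS ran from *Ccn1* and *Ccn2* through *Wwtr1*, *Yap1*, *Lats1*, *Amotl2*, *Tead1* and *Lats2* to *Ankrd1*. Neighbours whose ranges overlapped were *Wwtr1* and *Yap1*, *Yap1* and *Lats1*, and *Tead1* and *Lats2*, while the other neighbours were separate. After CTX the order differed in the place of *Amotl2*. Its PBS range of 8.60 to 10.01 FPKM lay below those of *Yap1* and *Lats1*, and its CTX range of 18.8 to 24.3 FPKM lay above both and overlapped that of *Wwtr1*. In both groups *Ccn1* and *Ccn2* were above all the other genes and *Ankrd1* was below them.

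CTX replicate 2 was the extreme CTX sample in all 5 genes whose groups did not overlap. Its level was 1.79 times the mean of the other CTX samples for *Ccn1*, 1.46 times for *Ccn2*, 1.69 times for *Wwtr1* and 1.27 times for *Amotl2*. For *Ankrd1* it was 0.0317 times that mean. For *Yap1*, *Lats1*, *Lats2* and *Tead1* it was between 0.989 and 1.08 times. The same sample differed in markers of cells around the follicle and, within the granulosa list, in *Cyp19a1* and *Fshr* among others. The summed FPKM of 4 theca markers was 690 to 707 in the PBS samples, 886 and 553 in CTX replicates 1 and 3, and 17.9 in CTX replicate 2. Genes of the cell type lists are named after their values were seen. *Lhcgr* and *Cyp11a1*, which GCs of large follicles also express, made up most of the theca sum, and *Cyp17a1* was likewise low in CTX replicate 2 (1.25 FPKM, against 30.8 to 34.4 after PBS). The fourth theca marker, *Insl3*, was not low there, at 0.814 FPKM against 0.27 to 0.396 after PBS. The sum of 6 stromal markers was 25.1 to 26.8 in the PBS samples, 50.9 and 38.6 in CTX replicates 1 and 3, and 10.6 in CTX replicate 2. Most of this sum was *Col1a1*, *Col3a1* and *Col1a2*. *Col1a1* had 2.65 FPKM in CTX replicate 2, against 8.18 to 9.58 after PBS. *Dcn*, *Lum* and *Pdgfra* had 1.08, 1.91 and 0.354 FPKM there, against lowest PBS values of 1.21, 1.96 and 0.446. Sums of 8 granulosa markers were high in all samples (11477 to 12764 after PBS and 10012 to 10633 after CTX), with *Inha*, the inhibin alpha subunit, making up most of the sum. Within that list, all CTX samples were below all PBS samples for 5 of the 8 genes (14.1% of all tested genes) and above them for 1 (15.0%). None passed the adjusted threshold (0 by limma with 3 unadjusted, against 19.6% of all tested genes, and 0 by voom with 5 unadjusted). The 5 genes that were below included *Foxl2*, a transcription factor of GC identity (184 to 193 FPKM after PBS, and 145, 76.9 and 107 after CTX), *Inhbb*, *Fshr* and *Cyp19a1*. *Cyp19a1* had 59.2 to 62.4 FPKM after PBS and 47.6, 6.61 and 32.5 after CTX. *Fshr* had 88.5 to 94.5 FPKM after PBS and 80.5, 42.8 and 69.9 after CTX, and both were lowest in CTX replicate 2. *Amh*, the anti-Müllerian hormone of growing follicles, was the gene that was higher, at 48.4 to 51.1 FPKM after PBS and 54.3, 179 and 85.5 after CTX. *Amhr2* reached 142 FPKM in CTX replicate 2, with groups that overlapped. The 5 endothelial markers summed to at most 5.40 FPKM after PBS and 4.07 after CTX. The 5 leukocyte markers summed to 3.45 to 4.73 FPKM after PBS and 4.86 to 10.7 after CTX, with *Cd3e* at 0 in 1 sample. The highest sum was that of CTX replicate 2. Most of each sum was *Cd68*, at 2.59 to 3.69 FPKM after PBS and 4.26, 8.97 and 3.91 after CTX. The 5 surface epithelium markers summed to 4.93 to 5.82 FPKM after PBS and 1.96 to 6.71 after CTX, and the 4 oocyte markers to 24.8 to 52.9 and 32.8 to 57.4. The part of these markers in the results was not tested. In such bulk samples, fewer cells of a type and less RNA per cell cannot be told apart.

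To see whether other parts of the pathway moved, 70 further genes were examined in 7 lists, of which 59 were tested. Only *Rassf1* and *Acta2* passed the adjusted threshold (3.39% of those tested, against 1.76% of all tested genes), both higher and both by more than 2-fold. The median log2 fold change of the 59 genes was 0.06. At an unadjusted p-value below 0.05 there were 15 of the 59, of which 12 were higher and 3 lower, against 19.6% of all tested genes in either direction. None was lower at the adjusted threshold (0 of 59 by limma and by voom), and voom gave 4 lower at an unadjusted p-value below 0.05.

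None of the 5 core kinases and adaptors passed by limma or voom, adjusted or unadjusted (0 of 5), and their groups all overlapped. Of all tested genes, 1.76% passed by limma, or 19.6% unadjusted, and 1.91% passed by voom. The groups were apart in 29.2% of them. *Stk4* and *Stk3*, which encode MST1 and MST2, had log2 fold changes of -0.03 and 0.06. The scaffold gene *Sav1* had -0.23, with 13.6, 12.7 and 12.4 FPKM after PBS and 14.5, 7.47 and 12.1 FPKM after CTX, the low value being that of replicate 2. *Mob1a* and *Mob1b*, which encode the activators of LATS kinases, had -0.09 and -0.02.

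Among 13 tested upstream regulators, *Rassf1* was the gene that passed. It encodes a Ras-association protein that binds MST kinases and is often silenced in tumours. Its FPKM was 2.06, 2.16 and 1.96 after PBS and 3.82, 5.25 and 4.92 after CTX. The groups were well apart, with a log2 fold change of 1.13 ± 0.14 (SE; limma, adjusted p = 0.0188). It was 1.04 without CTX replicate 2 (limma, adjusted p = 0.0175). The call was lost without any one of the PBS samples and without CTX replicate 3, where the adjusted p-value ranged from 0.0965 to 0.105. The share of all tested genes that passed was 0.484% to 0.733% in these fits. In the same list *Taok2*, a kinase that activates MST kinases, was the closest to the threshold in the other direction, and is named after its value was seen. It had 13.0, 14.3 and 11.7 FPKM after PBS and 9.81, 8.91 and 9.19 FPKM after CTX, a log2 fold change of -0.47 (limma, adjusted p = 0.0715).

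The genes that bind or restrain YAP and TAZ included 11 that were tested, and none passed (0 by limma, also unadjusted, and 0 by voom, with 1 unadjusted). The shares of all tested genes were 1.76% by limma, or 19.6% unadjusted, and 1.91% by voom. The log2 fold changes of the 11 genes ran from -0.19 to 0.41. Both paralogs of *Amotl2* were among the genes that did not pass. *Amot* had 5.09, 5.23 and 5.15 FPKM after PBS and 4.76, 4.28 and 4.52 FPKM after CTX, slightly lower in all CTX samples, with a log2 fold change of -0.19 (limma, adjusted p = 0.259). *Amotl1* had a log2 fold change of 0.09 (limma, adjusted p = 0.664), and its groups overlapped.

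Of the other TEAD genes, *Tead2* was the most abundant, at 16.1, 16.3 and 17.1 FPKM after PBS and 18.8, 25.2 and 19.0 FPKM after CTX. *Tead3* was at 1.48, 1.29 and 1.53 FPKM after PBS and 1.94, 2.75 and 1.88 FPKM after CTX. Both were higher in all CTX samples, with log2 fold changes of 0.33 and 0.56, but neither passed the test (limma, adjusted p = 0.2199 and 0.185). *Tead4* was at most 0.140 FPKM in any sample and was not tested. *Tead2* was above *Tead1* in every sample.

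A published signature of YAP and TAZ targets was used to ask whether the rise of *Ccn1* and *Amotl2* extended to targets outside the 9 genes. Its *Ptpn14* is counted above with the genes that restrain YAP and TAZ (limma, log2 fold change 0.41, adjusted p = 0.394). Of its 16 further genes, 15 were tested and none passed the adjusted threshold by limma or voom (1.76% and 1.91% of all tested genes). At an unadjusted p-value below 0.05 there were 3 by limma, against 19.6% of all tested genes, and 4 by voom. The absence of adjusted calls depended on CTX replicate 2, since *Gadd45a* and *Ccdc80* passed as higher without that sample. In that fit 3.64% of all tested genes passed. Weighting the samples by arrayWeights gave 5 of 15, of which 2 were higher and 3 lower, against 39.8% of all tested genes. In log2 fold change 7 were higher and 8 were lower after CTX treatment, with a median log2 fold change of -0.07. All CTX samples were above all PBS samples in 3 of the 15 genes, near the 15.0% of all tested genes, and below them in 2, near the 14.1%. The genes of this list are named after their values were seen. *Foxf2* was listed at 0 in all 6 samples. *Ccdc80*, a matrix protein gene, had 3.35, 3.09 and 3.48 FPKM after PBS and 4.78, 10.4 and 5.57 FPKM after CTX. *Gadd45a*, a gene of growth arrest and DNA damage, had 15.0, 14.5 and 15.2 FPKM after PBS and 22.3, 40.1 and 19.7 FPKM after CTX. Both were higher in all CTX samples and highest in replicate 2, as *Ccn1* was. Without CTX replicate 2 their log2 fold changes were 0.63 for *Ccdc80* and 0.49 for *Gadd45a* (limma, adjusted p = 0.0376 and 0.0290), against 0.96 and 0.80 with it (limma, adjusted p = 0.159 and 0.181). *Nt5e*, which encodes an ectonucleotidase, had 1.2002, 1.11 and 1.07 FPKM after PBS and 1.00, 0 and 0.415 FPKM after CTX. *Nuak2*, a kinase gene, had 0.959, 1.10 and 1.09 FPKM after PBS and 1.49, 0.0719 and 0.954 FPKM after CTX. Like *Ankrd1*, both were nearly or fully absent in CTX replicate 2.

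In the rest of the CCN family, *Ccn5*, listed as *Wisp2*, was the only gene tested. It had 19.1, 17.0 and 18.1 FPKM after PBS and 26.7, 0.439 and 16.5 FPKM after CTX. The low value was again that of replicate 2, and the groups overlapped (limma, log2 fold change -1.55, adjusted p = 0.554). *Ccn3*, *Ccn4* and *Ccn6* stayed at or below 0.392 FPKM in every sample.

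Serum response factor (SRF) and its MRTF cofactors share target genes with YAP, among them *Ccn1* and *Ccn2*. Of 12 tested genes in a list of SRF and MRTF targets, *Acta2*, which encodes smooth muscle actin, passed the threshold. It had 7.94, 7.66 and 8.60 FPKM after PBS and 14.7, 20.5 and 16.7 FPKM after CTX, with groups well apart. The log2 fold change was 1.08 ± 0.13 (SE; limma, adjusted p = 0.0166), and 0.95 without CTX replicate 2 (limma, adjusted p = 0.0050). The call was lost without any one of the PBS samples and without CTX replicate 3, where the adjusted p-value ranged from 0.0824 to 0.102. The share of all tested genes that passed was 0.484% to 0.733% in these fits. *Acta2* is also a marker of smooth muscle. The 6 markers of smooth muscle and pericytes summed to 11.2 to 12.7 FPKM after PBS and to 19.4 to 22.9 after CTX, and *Myh11*, *Cnn1* and *Rgs5* were each below 1 FPKM in every sample. Most of that sum was *Acta2* itself. The other 5 markers summed to 3.26, 3.58 and 4.14 FPKM after PBS and 4.67, 2.39 and 4.80 FPKM after CTX, with groups that overlapped. Altogether 6 of the 12 SRF and MRTF targets were higher in all CTX samples than in all PBS samples (15.0% of all tested genes) and 1 was lower (14.1% of all tested genes), and the median log2 fold change was 0.28.

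**Figure D5:**
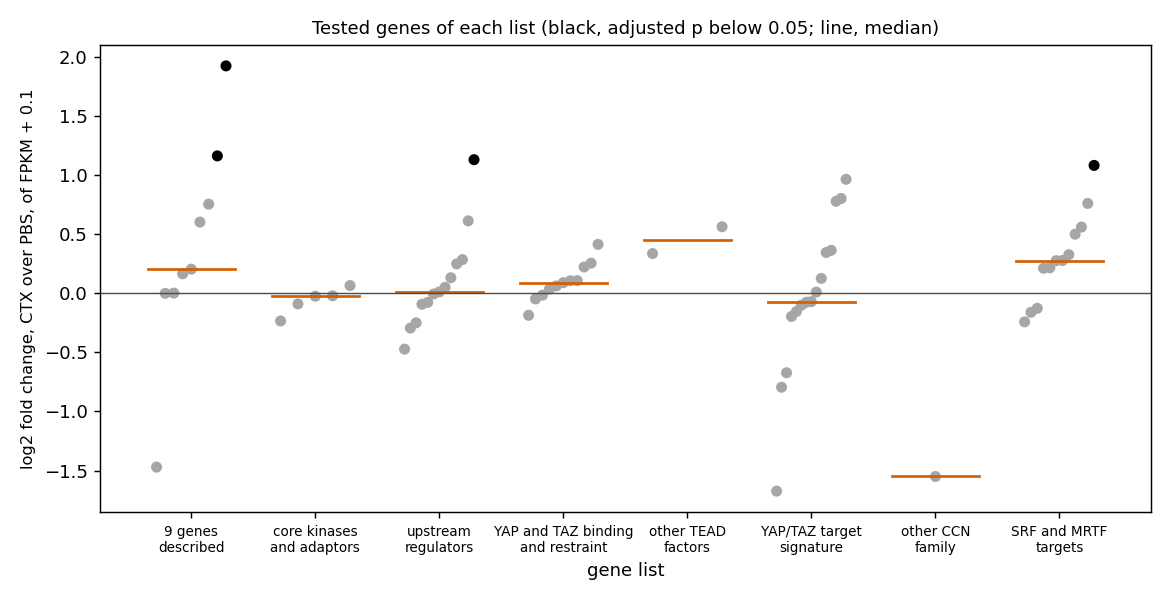
Log2 fold change of CTX over PBS on the FPKM + 0.1 scale for the tested genes of each list, with an orange line at the median; black marks an adjusted p-value below 0.05 in limma. Besides *Ccn1* and *Amotl2*, 1 upstream regulator (*Rassf1*) and 1 SRF target (*Acta2*) pass, and the core kinases lie between -0.23 and 0.06.

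To place the 4 target genes among all others, each was matched to the tested genes with the most similar profile over the 6 samples. Likeness was the root-mean-square difference of log2(FPKM + 0.1) values centred on each gene's mean, over 14462 other genes. *Ccn1* was closest to *Irs2*, an insulin receptor substrate (0.07), *Pim1*, a survival kinase (0.09), and the predicted gene *Gm13889* (0.14). *Irs2* had 3.63, 3.25 and 3.13 FPKM after PBS and 9.70, 20.3 and 11.7 FPKM after CTX. *Ccn2* was closest to *Tead3* (0.04), *Rin2*, a Rab5 effector (0.06), and *Hbegf*, an EGF-like growth factor (0.07).

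*Amotl2* was closest to the mechanosensitive channel gene *Piezo1* (0.07), the antiproliferative gene *Tob1* (0.07) and the AP-1 gene *Jun* (0.10). *Piezo1* had 2.74, 2.53 and 2.29 FPKM after PBS and 5.22, 5.96 and 5.06 FPKM after CTX. *Ankrd1* was closest to *H2-M5* (0.12), *Gm10489* (0.21) and *Inpp5j*, an inositol phosphatase gene (0.21). *H2-M5* had 0.938, 1.16 and 1.22 FPKM after PBS and 0.718, 0.0209 and 1.10 FPKM after CTX, and both genes were nearly absent in CTX replicate 2.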

How the data were processed

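RNA-seq was performed on 3 PBS and 3 CTX samples, grouped by their labels. The authors deposited FPKM values for 54532 genes, with gene names and coordinates. The deposited start and end matched GENCODE M21 on GRCm38 for 8 of the 9 genes described, all but *Ankrd1* (36111961 to 36120099 in GENCODE M21). The submitters' processing notes name CASAVA 1.8, fastp, HISAT2 2.0.5, featureCounts 1.5.0-p3, DESeq2 1.20.0 and mm10, and the deposited table also holds the authors' own group means, fold changes and p-values, which were not used. No per-sample column was left unused (0). FPKM multiplied by gene length gave whole reads for 100.0% of values above 0 (within 0.05 of a read), and these rebuilt reads give the depth. A level of 3 reads on a gene of 1 kb corresponds to between 0.164 and 0.185 FPKM.

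The log2(FPKM + 0.1) values of the groups were compared by limma 3.58.1 (eBayes with trend) in R 4.3.3, over genes with a mean of at least 0.5 FPKM, with Benjamini-Hochberg adjustment over all of them. The added 0.1 makes fold changes of weakly expressed genes too small. The fit was tested on simulated data. Ratios were compared by exact permutation tests in R, and promoters and counting intervals were read or computed with SciPy 1.17.1 and pandas 2.3.3 in Python 3.11.15. Promoter sequences are from RefSeq (GRCm38.p6). The limma p-values set the difference between groups against the spread between pools of mice, moderated over all tested genes. Those of the ratios came from relabelling the pools.

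The members and lists were chosen with earlier results of these data known. Genes were named if they belonged to the 9, to the TEAD, CCN or AMOT families or to the core kinases and adaptors, if they passed the test within a list, or if their profile was among the 3 closest to that of *Ccn1*, *Ccn2*, *Ankrd1* or *Amotl2*. Others, the genes of the cell type lists and the YAP and TAZ signature among them, were named after their values were seen. Alternatives covered pseudocounts, filters, scalings, weights, voom on rebuilt reads, a replicate block and each sample left out.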

Additional observations from a re-analysis of the deposited data

How the results depend on the processing

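Of the 9 genes, the number past the adjusted threshold was 2 in the reported fit and in those with other pseudocounts, filters or scalings, without the trend, with the 2-fold limit and with voom. It was 4 with arrayWeights, where *Ccn2* and *Wwtr1* joined and 5753 of the 14463 genes passed (39.8%), and 4 with unadjusted p-values. With the replicate block it was 0 (4 at an unadjusted p-value below 0.05 in limma), although the fold changes were the same by construction. Of all tested genes, 53 (0.366%) passed with the block. The adjusted p-values of *Ccn1* and *Amotl2* were then 0.0927 and 0.0654 in limma. Same-numbered samples hold different mice and their deviations from the group means correlated across genes at 0.0556, 0.0242 and 0.00581, and not every sample correlated best with its own number, so the block was not taken to pair them. With a single sample left out, from 0 to 2 of the 9 genes passed, and from 0.484% to 3.64% of all tested genes. The 0 came without PBS replicate 2 and without PBS replicate 3, each with 4 at an unadjusted p-value below 0.05. All calls were for genes that were higher after CTX. Of the 70 pathway genes, 59 were tested and 2 passed, or 1 at a mean FPKM of at least 5, which drops *Rassf1*. With arrayWeights it was 24 of the 59 (14 higher and 10 lower), where 39.8% of all tested genes passed. With the replicate block it was 0 (16 unadjusted), where 0.366% of all tested genes passed. The number ranged from 0 to 5 with a sample left out. The 5 came without CTX replicate 2, where *Map4k4*, *Gadd45a* and *Ccdc80* joined *Rassf1* and *Acta2* and 3.64% of all tested genes passed. The 0 came without PBS replicate 1, 2 or 3 or CTX replicate 3, where 12, 9, 12 and 16 genes had an unadjusted p-value below 0.05 in limma. In these fits 0.484% to 0.733% of all tested genes passed the adjusted threshold.

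The sign of the near-zero log2 fold changes turned in some fits. For *Lats1* it was -0.023 with quantile normalization, -0.0081 with 75th percentile scaling, -0.098 with arrayWeights and -0.0011 with voom, and from -0.057 to 0.056 with a sample left out. For *Yap1* it ranged from -0.039 to 0.029 with a sample left out. *Ankrd1* ranged from -2.09 without CTX replicate 3 to -0.30 with arrayWeights and passed under no alternative. The causes of these differences between fits were not tested. At this depth, levels of *Ankrd1* below about 0.1 FPKM rest on 3 reads or fewer.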
